A study of Homo sapiens with 18 samples.

Results

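The first 4 h of the response of OVCAR-3 cells to i-BET858 were read from 6 of the 18 libraries of the study. These were the 3 libraries of cells given i-BET858 at 1 µM and the 3 of cells given the solvent DMSO, each taken after 4 h, and they were chosen by treatment and time point with no measured value. OVCAR-3 is an established line of high-grade serous ovarian cancer, all groups came from this 1 line in 12-well plates with stripped medium, and no group carried a further genetic change. The replicates were biological and the RNA was poly-A enriched. i-BET858 and the comparator i-BET151 (also 1 µM, 4 h) are inhibitors of the BET bromodomain proteins.

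The 6 libraries held 28797010 to 39432226 counts, so that 3 counts, the most that a count of 0 allows, came to 0.0758 to 0.108 CPM (CPM are counts as a share of the library, scaled to 1000000 counts and by TMM, a factor that evens out library composition; the limit covers counting error only). Replicate 3 stood apart in both groups. Its libraries had a count in 18810 and 20642 genes, against 23674 to 24938 in replicates 1 and 2, and the counts over all genes and those of some gene lists are also given for replicates 1 and 2 alone. All 12 markers of serous ovarian epithelium lay at 1 CPM or more in each of the 6 libraries, with a summed level of 10265 to 11652 CPM with DMSO and of 12523 to 12914 CPM with i-BET858. Of these markers KRT8, FOLR1 and MSLN rose and CDH6 fell. The calls of KRT8 and FOLR1 were lost with scaling by total counts (adjusted p = 0.0736 and 0.137). The call of FOLR1 was also lost on leaving out any 1 library other than i-BET858 replicate 1 (adjusted p = 0.0705 to 0.153), and that of MSLN without DMSO replicate 1, DMSO replicate 2 or i-BET858 replicate 3 (adjusted p = 0.0560 to 0.0772). Markers of other cells were far lower. The 7 leukocyte markers summed to 1.16 to 2.03 CPM with DMSO and 1.40 to 1.76 CPM with i-BET858, with CD3E, CD68 and MS4A1 at 0 throughout, and the 6 fibroblast markers to 22.7 to 41.1 and 30.8 to 47.2 CPM. The 4 mesothelial markers summed to 8.16 to 11.5 and 10.2 to 17.5 CPM, and the 4 endothelial markers to 3.31 to 6.53 and 9.07 to 15.7 CPM. The last of these moved through KDR, a VEGF receptor (1.06 ± 0.156 to 8.48 ± 3.08 CPM, mean ± SD, n = 3), while PECAM1 and CDH5 stayed under 1 CPM in every library. In bulk RNA, fewer cells of a kind and less RNA per cell cannot be told apart.

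BET proteins, among them BRD2, BRD3 and the testis protein BRDT, read acetylated lysines on histone tails with paired bromodomains and help to bring P-TEFb, the kinase that releases paused RNA polymerase II, to promoters and enhancers. BET inhibitors occupy the bromodomain pockets and displace the proteins from chromatin. Genes with large enhancers are known to lose transcription first, while HEXIM1 and histone genes are known to rise and are used as markers of target engagement. In serous ovarian cancer, BET inhibition is studied because growth-factor and repair genes depend on BET proteins.

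After 4 h, 17192 genes had enough counts to be tested, and 2497 of them (14.5%) were higher and 2806 (16.3%) lower with i-BET858 than with DMSO at an adjusted p under 0.05 (edgeR quasi-likelihood test, Benjamini-Hochberg over all genes tested). Genes below this threshold are called passed here. At least a 2-fold change was reached by 1217 higher genes (7.08%) and 1204 lower genes (7.0%). With the replicate number as a block in the fit, 3841 genes passed as higher and 3957 as lower, and replicates 1 and 2 alone gave 3479 and 3686. The median log2 fold change of all tested genes was 0.02. It moved to -0.14 when libraries were scaled by their total counts alone, and the passed genes then split into 1746 higher and 3718 lower. Changes are therefore relative to the bulk of the genes, and CPM values give shares of a library and not RNA per cell.

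The higher and lower genes differed in the share of the library they held. The 2497 higher genes took 26.7 ± 1.02% of all CPM with DMSO (SD, n = 3) and 42.5 ± 0.660% with i-BET858, while the 2806 lower genes went from 17.5 ± 0.290% to between 9.71 and 10.5%. Genes changed by at least 2-fold held little of either library. The 2-fold higher genes went from 2.66 ± 0.0729% to 7.73 ± 0.477% and the 2-fold lower genes from 4.96 ± 0.0754% to 1.96 ± 0.0973%. These sets were chosen by the same contrast, and their shares are a description. Genes that changed by less than 2-fold thus made up most of the shift in CPM.

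**Figure D1:**
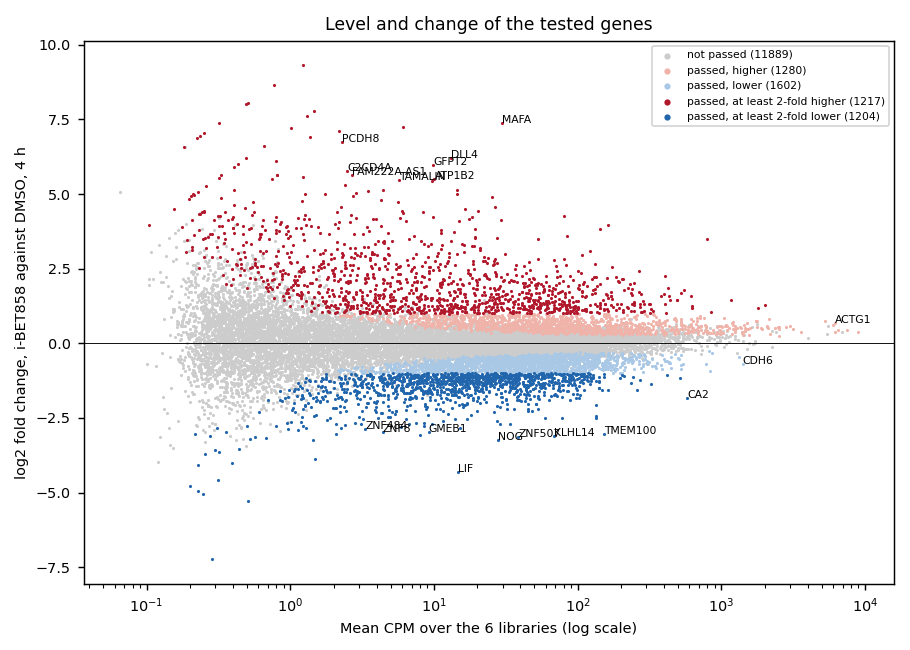
Change against level for the 17192 tested genes: the horizontal axis is the mean CPM over the 6 libraries (log scale) and the vertical axis the log2 fold change of i-BET858 against DMSO at 4 h, with passed genes of at least 2-fold in red (1217 higher) and blue (1204 lower), other passed genes in pale red and pale blue and the rest in grey. Named are the largest gain in CPM, 2 of the largest losses and 16 genes picked by fold change. These 16 had the largest fold changes among genes with average log2 CPM of at least 1 and all 9 library pairs moving one way. The abundant genes at the right lie mostly just above 0.

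Among genes whose average log2 CPM reached 1 and whose 9 treated-to-DMSO library pairs all moved one way, the 8 largest rises were those of MAFA, PCDH8, DLL4, GFPT2, C2CD4A, FAM222A-AS1, ATP1B2 and TAMALIN. MAFA, a transcription factor of pancreatic beta cells (chr8:143419182-143430732), read 0.635, 0.404 and 0 CPM with DMSO and 63.1, 63.0 and 51.9 CPM with i-BET858. Its log2 fold change was 7.39 ± 0.49 (SE, adjusted p = 2.15e-06). DLL4, a Notch ligand (chr15:40929340-40939073), went from 0.212, 0.253 and 0.583 CPM to 27.4, 26.3 and 23.7 CPM, a log2 fold change of 6.21 ± 0.36 (adjusted p = 9.73e-07). For both genes the DMSO libraries lay near the limit of detection and the treated libraries far above it. GFPT2, an enzyme of the hexosamine pathway, rose from 0.312 ± 0.134 to 19.4 ± 8.93 CPM, with replicate 2 highest at 29.4 CPM. ATP1B2, a subunit of the sodium pump, rose from 0.423 ± 0.129 to 19.7 ± 3.41 CPM, and TAMALIN, a scaffold of glutamate receptors, from 0.247 ± 0.0326 to 11.2 ± 1.28 CPM. PCDH8, a protocadherin, had 2, 1 and 1 counts with DMSO and 118, 120 and 196 counts with i-BET858. C2CD4A had 6, 3 and 0 counts against 154, 195 and 100, and the antisense RNA FAM222A-AS1 1, 6 and 4 counts against 96, 173 and 247. The fitted fold changes of these 3 genes (6.76, 5.77 and 5.63 on the log2 scale) rest on few DMSO counts.

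The 8 largest falls were those of LIF, NOG, ZNF507, KLHL14, TMEM100, ZNF8, GMEB1 and ZNF484. LIF, a cytokine of the IL6 family, fell from 18.6, 36.9 and 29.0 CPM to 2.04, 1.81 and 0.448 CPM (log2 fold change -4.31 ± 0.59, adjusted p = 2.32e-04). NOG, which encodes the BMP antagonist noggin, fell from 45.04, 50.8 and 55.3 CPM to 4.77, 6.78 and 4.43 CPM (-3.24 ± 0.20, adjusted p = 1.58e-06). The 2 groups were far apart in both genes, and LIF varied more between replicates than NOG. TMEM100, a membrane protein tied to BMP signalling, was the most abundant of the 8 genes with DMSO in CPM and fell from 270 ± 28.3 to 33.3 ± 1.62 CPM. KLHL14, an adaptor of ubiquitin ligases, fell from 123 ± 10.9 to 14.2 ± 0.574 CPM. The zinc finger genes ZNF507 (69.5 ± 6.07 to 7.95 ± 1.35 CPM), ZNF8 (7.81 ± 2.43 to 1.01 ± 0.374 CPM) and ZNF484 (5.85 ± 1.55 to 0.786 ± 0.247 CPM) fell to about the same extent. GMEB1, a DNA-binding factor, fell from 16.2 ± 2.70 to 2.09 ± 0.362 CPM. The exons of LIF and KLHL14 overlap antisense genes and those of ZNF8 a read-through transcript, whose reads cannot be told apart here because the strand setting of the counting is not given in the sources used here.

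**Figure D2:**
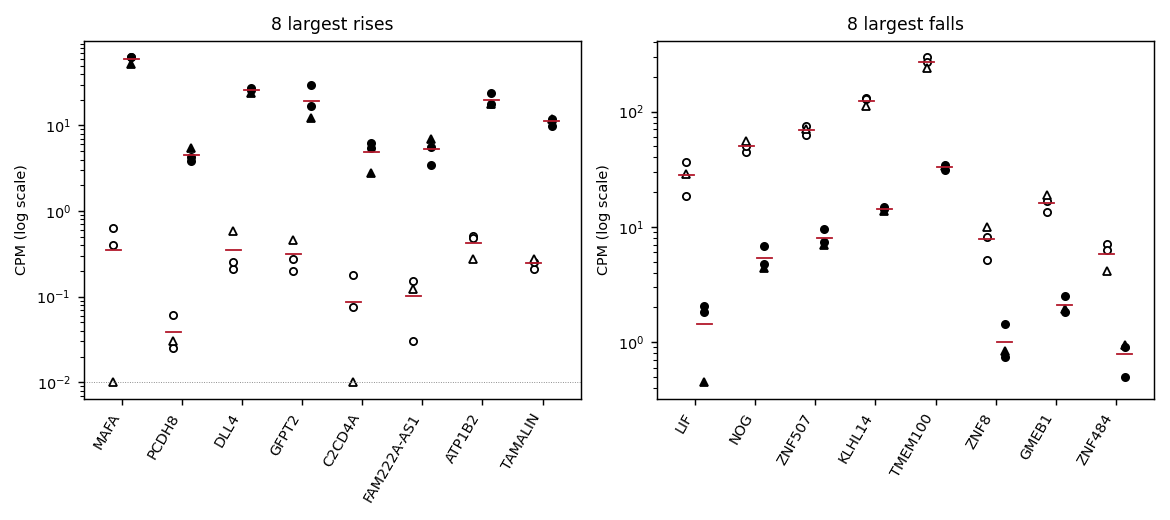
CPM in each library of the 8 genes that rose most and the 8 that fell most in fold (log axis, 0 drawn at 0.01 CPM): open symbols are the 3 DMSO libraries, filled symbols the 3 i-BET858 libraries at 4 h, triangles replicate 3 and red bars group means. The genes were ranked among those with average log2 CPM of at least 1 and all 9 library pairs moving one way. In all 16 genes the 2 groups do not overlap, which the choice of genes requires.

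A few protein-coding genes went from no count to a measurable level or the reverse. Among the 2143 protein-coding genes with a passed change of at least 2-fold, 4 had no count in any DMSO library and 1 none in any i-BET858 library. HS3ST3B1, a heparan sulphate sulphotransferase, read 0.860, 1.29 and 2.46 CPM with i-BET858. By the mean of these libraries it was at least 16.7-fold higher, set against the highest limit of 3 counts in a DMSO library (0.0921 CPM). Single libraries can lie nearer to the limit. By the same bound CEP295NL was at least 11.1-fold higher, and the peroxisomal transporter ABCD2 at least 5.10-fold higher. IFNL1, an interferon lambda, had 15, 0 and 20 counts with i-BET858 (at least 3.97-fold higher by its mean), so that 1 treated library held none, and its call was lost in 5 of the 6 fits that left out a library (adjusted p up to 0.0746). The chemokine receptor gene CCR1 had 29, 17 and 13 counts with DMSO and 0 in all 3 treated libraries. By its DMSO mean the gene was at least 5.26-fold lower (adjusted p = 0.0567 without DMSO replicate 1). The exons of CEP295NL overlap TIMP2 on the same strand.

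In absolute CPM the order was another. By size of the change in mean CPM the 6 largest gains were those of ACTG1, HSP90AA1, RPS2, EEF1A1, RPS3 and PKM. ACTG1, cytoplasmic gamma actin, gained 2850 CPM (4868, 4092 and 5389 to 6951, 7111 and 8836 CPM), and its log2 fold change was only 0.67 ± 0.13 (adjusted p = 0.00191). HSP90AA1, the inducible HSP90 chaperone, gained 2620 CPM (3958 ± 677 to 6578 ± 1475), with an adjusted p of 0.0132 that rose to 0.0602 with scaling by total counts, 0.0610 without DMSO replicate 3 and 0.0703 without i-BET858 replicate 2. The ribosomal protein genes RPS2 and RPS3 gained 2444 and 2264 CPM, the elongation factor EEF1A1 2275 CPM and the glycolytic enzyme PKM 2046 CPM. All treated libraries lay above all DMSO libraries in these 6 genes. RPS2, RPS3, EEF1A1 and ACTG1 have many processed pseudogenes, and reads shared with such copies are uncertain.

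Among the 6 largest losses in CPM, CDH6 encodes a cadherin of the Müllerian and renal epithelium and is a surface target in ovarian cancer. The mean of CDH6 fell by 664 CPM, from 1728, 1794 and 1706 to 1027, 1070 and 1138 CPM (log2 fold change -0.69 ± 0.08, adjusted p = 6.71e-05). CA2, carbonic anhydrase II, fell from 996, 1034 and 682 to 277, 272 and 210 CPM (-1.84 ± 0.19, adjusted p = 3.03e-05). ARHGAP29, a GTPase-activating protein, fell from 1086 ± 83.1 to 575 ± 23.5 CPM, and EZR, the membrane-cytoskeleton linker ezrin, from 1537 ± 122 to 1126 ± 13.1 CPM. NDST1, a heparan sulphate N-sulphotransferase, and the RNA-binding SAMD4B were more variable. NDST1 read 780, 524 and 835 CPM against 292, 203 and 465 CPM (adjusted p = 0.0127), and SAMD4B 853, 904 and 1121 CPM against 496, 482 and 820 CPM (adjusted p = 0.0354). The call of SAMD4B was lost without DMSO replicate 2, DMSO replicate 3, i-BET858 replicate 1 or i-BET858 replicate 2 (adjusted p = 0.0534 to 0.134). Replicate 3 was the highest of its group in both genes, and the treated libraries still lay under the DMSO libraries.

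To describe the response by gene group, 43 lists of pathways, complexes and families were counted. The shares below are read against the 14.5% of all tested genes that passed as higher and the 16.3% that passed as lower, and the list medians against the 0.02 of all genes. Most listed genes code for proteins, and of all 13914 tested protein-coding genes 16.2% passed as higher and 19.1% as lower. The lists were chosen with earlier results of these data known, and no test of a list was made.

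**Figure D3:**
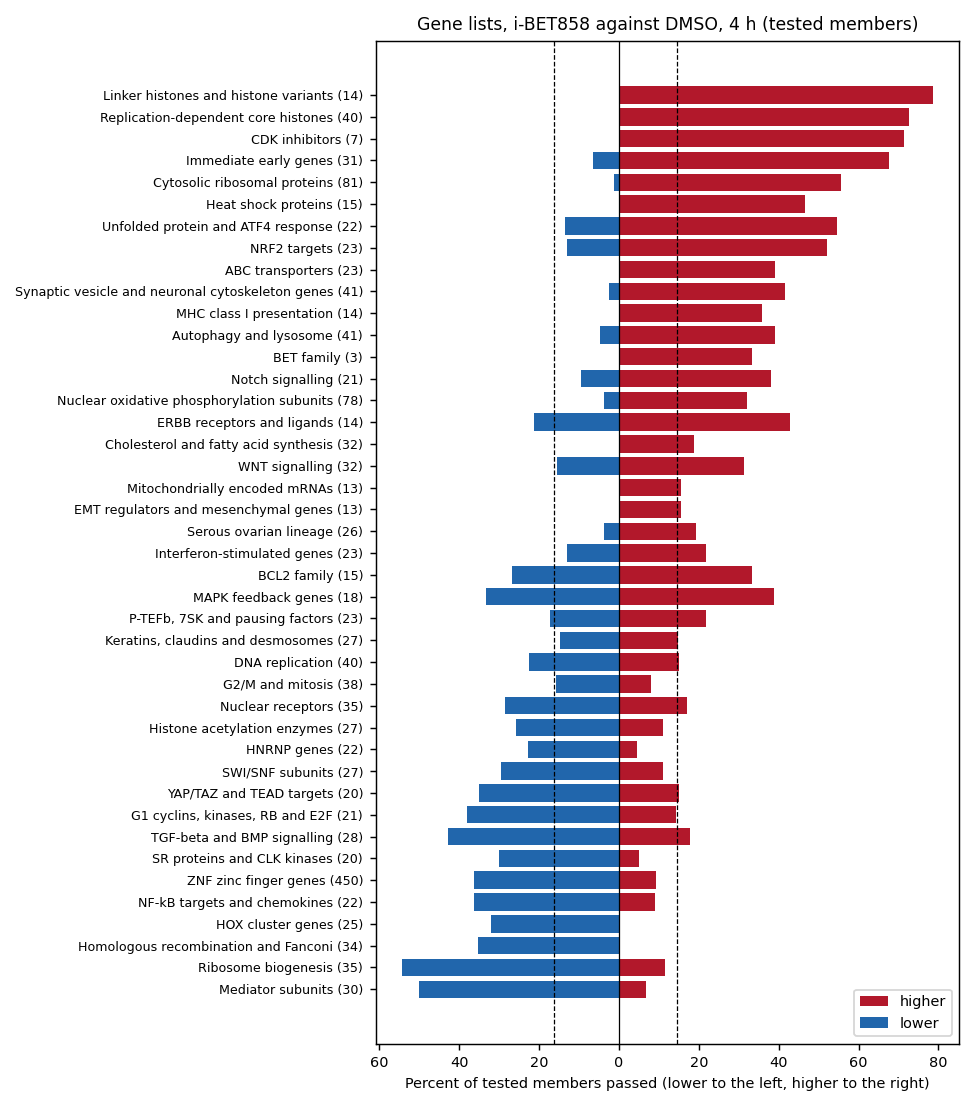
Percent of the tested members of each of 42 gene lists that passed as higher (red, to the right) and as lower (blue, to the left) with i-BET858 at 4 h, ordered by the difference; the number of tested members stands beside each name. Dashed lines mark the shares over all 17192 tested genes, 14.5% higher and 16.3% lower; both histone lists and the CDK inhibitors have the largest differences upwards and ribosome biogenesis and Mediator the largest downwards.

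Histone genes were mostly higher. Of the 58 replication-dependent core histone genes listed, which encode the nucleosome's histones in S phase, 40 were tested, and 29 of them (72.5%) passed as higher, all by at least 2-fold, and 0 as lower. The other members fell under the filter on low counts (14) or were not matched by symbol (4). The median log2 fold change was 1.85, and 34 passed in replicates 1 and 2 alone. All 4 kinds took part, with 5 of 9 H2A genes, 11 of 13 H2B genes, 5 of 8 H3 genes and 8 of 10 H4 genes higher. The summed level of the H2B genes was 363.5, 267.8 and 207.7 CPM with DMSO and 967.4, 841.9 and 637.2 CPM with i-BET858, and that of the H4 genes 67.88, 65.30 and 53.94 against 243.8, 211.0 and 142.6 CPM. In each kind every treated library lay above every DMSO library, and replicate 3 was the lowest of its group.

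Among single core histones, H2BC5 rose from 46.7, 31.0 and 25.0 to 136, 176 and 140 CPM (log2 fold change 2.13 ± 0.21, adjusted p = 2.77e-05). H2AC6 rose from 116, 82.6 and 67.0 to 252, 195 and 152 CPM (1.17 ± 0.25, adjusted p = 0.00389). The largest fold changes were at low levels, such as H4C5 (1.57 ± 0.0836 to 20.6 ± 10.8 CPM, 3.71 ± 0.44), where replicate 3 reached 8.29 CPM against 28.1 and 25.5 CPM. H4C4 and H3C15 were also called, but had DMSO libraries without a count and stayed under 4 CPM. H4C3 did not pass (1.51 ± 0.66, adjusted p = 0.111). Most replication-dependent histone mRNAs end in a stem-loop and carry no poly-A tail. In poly-A enriched libraries more histone mRNA and a larger polyadenylated share of it cannot be told apart.

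The linker histones and histone variants, not all of which are polyadenylated, had 11 of 14 higher (78.6%) and 0 lower, with a median of 1.14. The limit given above for poly-A enriched libraries also holds for those that are not, and which members it touches was not tested. MACROH2A2 was the only member with a negative fold change (-0.38, adjusted p = 0.115), and it passed as lower with the replicate block, with total counts and in replicates 1 and 2 (adjusted p = 0.0206, 0.0241 and 0.0358). H2AX, the variant that is phosphorylated at DNA breaks, rose from 252, 224 and 236 to 619, 651 and 657 CPM (1.44 ± 0.09, adjusted p = 1.69e-06). The linker histone gene H1-10 rose from 266 ± 37.8 to 723 ± 60.7 CPM. H1-2 rose from 117 ± 23.6 to 251 ± 66.9 CPM. H1-3 and H1-4 rose too, at levels of 1.14 ± 0.601 and 3.93 ± 1.80 CPM with i-BET858.

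**Figure D4:**
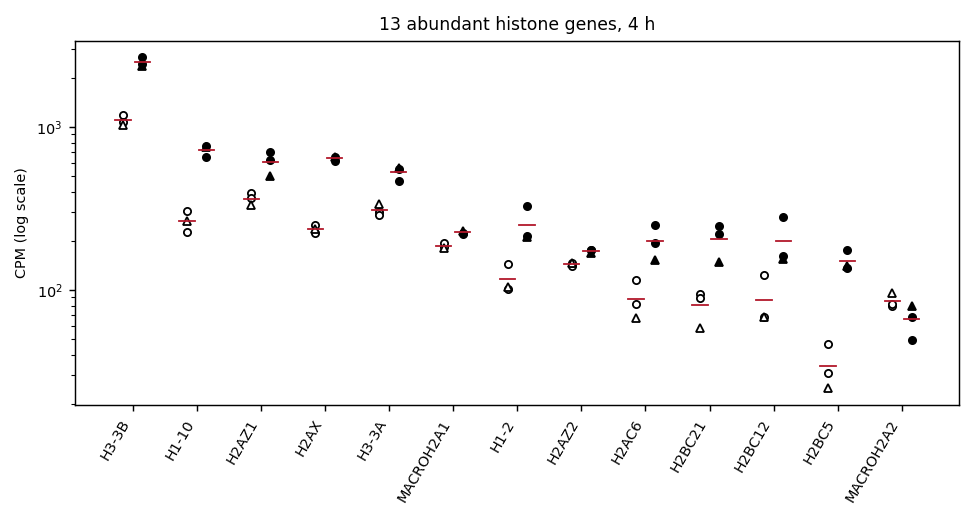
CPM of 13 core, linker or variant histone genes among the 14 with the highest mean over the 6 libraries, chosen for their level (log axis): open symbols are the 3 DMSO and filled symbols the 3 i-BET858 libraries at 4 h, and red bars mark group means. The groups do not overlap in 12 of the 13 genes, MACROH2A2 being the exception; replicate 3 is drawn as triangles.

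The direct targets and their partners came next. Of the BET genes, BRD2 rose from 188, 177 and 175 to 489, 452 and 423 CPM (log2 fold change 1.33 ± 0.11, adjusted p = 6.92e-06). BRD3 read 72.6 ± 8.78 CPM with DMSO and 94.2 ± 28.9 CPM with i-BET858 and did not pass (adjusted p = 0.225, but 0.0363 with the replicate block). BRDT was under the filter. In the list of P-TEFb, 7SK and pausing factors 5 of 23 genes were higher and 4 lower (7 and 7 with the block, 5 and 7 with total counts), with a median of -0.13. ELL2, a subunit of the super elongation complex, rose from 20.6 ± 0.697 to 84.5 ± 10.9 CPM (2.04 ± 0.14, adjusted p = 2.56e-06), and HEXIM1, which holds P-TEFb inactive, from 183 ± 21.03 to 669 ± 56.9 CPM. NELFA, a subunit of the pausing factor NELF, fell from 48.6, 46.7 and 53.4 to 14.2, 12.2 and 14.2 CPM (-1.87 ± 0.17, adjusted p = 1.39e-05). CDK9, the kinase of P-TEFb, read 109 ± 8.74 and 99.4 ± 3.44 CPM and did not pass (adjusted p = 0.397).

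Mediator, the complex that links enhancers to RNA polymerase II, had 15 of 30 subunits lower and 2 higher, with a median of -0.59. MED1 fell from 70.2 ± 12.8 to 27.9 ± 7.49 CPM, MED8 from 28.3 ± 4.78 to 10.4 ± 2.19 CPM and MED7 from 16.1 ± 1.37 to 6.23 ± 0.450 CPM. MED26, which docks the super elongation complex, rose from 3.98 ± 0.724 to 10.3 ± 0.300 CPM (1.37 ± 0.21, adjusted p = 5.71e-04). Among enzymes that write or erase histone acetylation 7 of 27 were lower, all by at least 2-fold, and 3 higher (8 and 8 with the block, 8 lower and 1 higher with total counts). The acetyltransferases EP300 (88.9 ± 23.4 to 40.9 ± 7.54 CPM), CREBBP (98.8 ± 25.2 to 40.2 ± 17.1 CPM) and KAT5 (9.69 ± 2.20 to 3.03 ± 0.390 CPM) fell, as did the deacetylase HDAC9 (55.0 ± 3.21 to 21.5 ± 2.69 CPM). SIRT1, an NAD-dependent deacetylase, rose from 57.4 ± 7.62 to 173 ± 25.8 CPM. HDAC1 did not pass (148 ± 20.9 and 181 ± 18.2 CPM, adjusted p = 0.138, 0.00486 with the block).

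Of the SWI/SNF chromatin remodelling subunits 8 of 27 were lower (14 with the block, with total counts and in replicates 1 and 2) and 3 higher. ARID1A, a tumour suppressor of ovarian clear cell cancer, fell from 139, 137 and 191 to 55.1, 65.6 and 81.1 CPM (-1.21 ± 0.20, adjusted p = 9.07e-04). ARID2 fell from 49.7 ± 5.15 to 13.4 ± 3.06 CPM and BICRA from 13.6 ± 4.29 to 5.19 ± 1.08 CPM. DPF3 rose from 0.126 ± 0.0886 to 2.38 ± 1.36 CPM, and the ATPase SMARCA4 did not pass (175 ± 19.8 and 166 ± 34.3 CPM, adjusted p = 0.804). Of the splicing factors of the SR family and the CLK kinases that phosphorylate them, 6 of 20 were lower and 1 higher (9 and 4 with the block, 7 and 0 with total counts). SRSF4 fell from 59.5 ± 8.38 to 23.4 ± 3.82 CPM and SRSF1 from 95.8 ± 12.9 to 64.2 ± 1.52 CPM, a call lost without DMSO replicate 2 or i-BET858 replicate 1 (adjusted p = 0.0717 and 0.0531). The higher member was the kinase CLK1 (1.04, adjusted p = 0.0312), whose call was lost with total counts, with 18 libraries in the fit and without DMSO replicate 1, DMSO replicate 3, i-BET858 replicate 1 or i-BET858 replicate 2 (adjusted p = 0.0722 to 0.138). Of 22 HNRNP genes, which encode RNA-binding proteins of pre-mRNA, 5 were lower and 1 higher (8 and 4 with the block, 8 and 1 with total counts). HNRNPAB was the higher member (0.80) and HNRNPLL had the largest fall (-0.89, adjusted p = 7.04e-04).

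Zinc finger genes, many of which encode KRAB repressors of transposable elements, were the largest family counted. Of 450 tested ZNF genes 164 were lower (36.4%) and 42 higher (9.33%), with a median of -0.45. The counts were 187 and 57 in replicates 1 and 2, 203 and 67 with the block and 190 and 29 with total counts. The exceptions with the largest rise were ZNF804A (0.287 ± 0.235 to 4.96 ± 0.418 CPM), ZNF878 (0.115 ± 0.0336 to 1.74 ± 0.128 CPM) and ZNF488 (0.851 ± 0.186 to 9.28 ± 1.25 CPM). Of the HOX cluster genes, which encode positional identity, 8 of 25 tested were lower and 0 higher (14 and 1 in replicates 1 and 2), with a median of -0.77. HOXA3 fell from 35.4 ± 5.20 to 10.4 ± 0.906 CPM and HOXC6 from 3.36 ± 0.231 to 0.744 ± 0.401 CPM, whose exons overlap HOXC4. Among 35 nuclear receptors 10 were lower and 6 higher. The glucocorticoid receptor NR3C1 fell from 24.7, 24.7 and 36.2 to 6.31, 10.98 and 12.5 CPM (-1.52 ± 0.32, adjusted p = 0.00421), while the vitamin D receptor VDR rose from 43.6 ± 8.21 to 158 ± 21.7 CPM (1.86 ± 0.16). The oestrogen receptor ESR1 was near the limit of detection (0.637 ± 0.305 and 0.436 ± 0.188 CPM).

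Immediate early genes, which cells switch on within minutes of a stimulus, were mostly higher. Of 31 tested, 21 passed as higher (67.7%) and 2 as lower, with a median of 1.18. FOS rose from 8.98, 14.7 and 14.9 to 52.0, 54.4 and 60.6 CPM (2.11 ± 0.19, adjusted p = 1.47e-05), JUN from 208 ± 1.66 to 329 ± 24.5 CPM and EGR1 from 37.3 ± 10.2 to 84.7 ± 10.1 CPM. ARC, best known from neurons, had the largest fold change of the list (0.519 ± 0.192 to 11.4 ± 2.23 CPM, 4.44 ± 0.33), followed by the orphan receptor NR4A3 (0.782 ± 0.352 to 6.62 ± 1.31 CPM) and KLF2 (2.18 ± 1.42 to 11.7 ± 4.61 CPM). The lower members were ZFP36L1, which promotes mRNA decay (-0.98, adjusted p = 0.00142), and KLF6 (-0.57, adjusted p = 0.0258), whose call was lost without DMSO replicate 1, DMSO replicate 3, i-BET858 replicate 1 or i-BET858 replicate 3 (adjusted p = 0.0507 to 0.107). The feedback genes of MAP kinase signalling were split, with 7 of 18 higher and 6 lower. Those higher included the phosphatase gene DUSP1 (16.97 ± 1.31 to 43.6 ± 3.35 CPM) and the ETS factor ETV5 (14.3 ± 2.63 to 68.1 ± 12.3 CPM). Those lower included SPRY1, a Sprouty inhibitor of receptor signalling (22.3 ± 2.36 to 5.74 ± 1.30 CPM), and DUSP8 (7.55 ± 1.57 to 2.08 ± 0.342 CPM). DUSP6, the classical readout of ERK activity, was 7.99 ± 4.00 and 11.9 ± 5.78 CPM and did not pass (adjusted p = 0.355, 0.00657 with the block).

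Among ERBB receptors and ligands 6 of 14 were higher and 3 lower. The EGFR ligands HBEGF (7.65, 6.90 and 6.85 to 49.9, 44.5 and 42.1 CPM, 2.67 ± 0.14, adjusted p = 7.78e-07) and AREG (3.31 ± 1.48 to 11.7 ± 2.10 CPM) rose. ERRFI1, a feedback inhibitor of EGFR, rose from 97.7 ± 5.86 to 393 ± 16.4 CPM. EGFR itself read 101 ± 22.2 and 64.7 ± 17.3 CPM (-0.65 ± 0.24, adjusted p = 0.0588, 4.24e-04 with the block), and ERBB2 137 ± 12.5 and 143 ± 27.04 CPM (adjusted p = 0.792). Of the 3 lower members the neuregulins NRG1 and NRG2, ligands of ERBB3 and ERBB4, had log2 fold changes of -1.26 and -1.19 (adjusted p = 0.00678 and 8.78e-04), and the EGFR ligand BTC had -0.52 (adjusted p = 0.0460), a call that was lost without any 1 of the 6 libraries and with RLE scaling (adjusted p = 0.0519 to 0.160). In the Notch pathway 8 of 21 genes were higher (7 by at least 2-fold) and 2 lower. Besides DLL4, the receptor NOTCH1 rose from 105, 118 and 148 to 302, 409 and 511 CPM (1.72 ± 0.23, adjusted p = 1.85e-04), and NRARP, a target and inhibitor of Notch, from 20.7, 23.4 and 14.03 to 351, 319 and 243 CPM (3.97 ± 0.24, adjusted p = 1.13e-06). HES6 rose from 8.56 ± 1.54 to 97.9 ± 33.1 CPM. The lower members were RBPJ, the DNA-binding factor of the pathway, and its coactivator MAML2 (-1.11 and -1.57, adjusted p = 1.40e-04 and 2.20e-04). HES1, the usual Notch target, did not pass (40.4 ± 1.37 and 34.1 ± 1.79 CPM, adjusted p = 0.243), nor did the ligand JAG1 (420 ± 103 and 375 ± 86.1 CPM, adjusted p = 0.665).

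In WNT signalling 10 of 32 genes were higher and 5 lower. The receptor FZD5 rose from 13.8 ± 4.48 to 58.5 ± 14.1 CPM and the feedback inhibitor NKD1 from 1.63 ± 0.794 to 9.67 ± 2.33 CPM. WNT5A, a ligand of the non-canonical branch, fell by 2.71 on the log2 scale. TGF-beta and BMP signalling had 12 of 28 genes lower (42.9%) and 5 higher. Besides NOG, the receptor TGFBR2 fell from 133, 118 and 101 to 37.5, 48.4 and 34.4 CPM (-1.55 ± 0.16, adjusted p = 3.09e-05) and INHBB, a subunit of activin B, from 100.3 ± 21.7 to 17.7 ± 4.01 CPM. Among those higher were SKI, a corepressor of SMAD factors, and ID4, a BMP target (1.68 and 1.16, adjusted p = 1.69e-04 and 0.00148). SMAD7, an inhibitor of the pathway, did not pass (adjusted p = 0.855). Among genes of the YAP and TEAD pathway 7 of 20 were lower and 3 higher. YAP1 fell from 94.5 ± 7.44 to 61.8 ± 6.17 CPM and ANKRD1 from 22.8 ± 4.24 to 6.62 ± 3.61 CPM, whereas the targets CCN1 (178 ± 24.8 to 446 ± 35.9 CPM) and CCN2 (154 ± 32.5 to 385 ± 28.2 CPM) rose. CCN1 and CCN2 also stand in the immediate early list.

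Of 22 tested NF-kB targets and chemokines 8 were lower (36.4%) and 2 higher (10 and 5 with the block), with a median of -0.67. CXCL1 fell from 11.8, 25.7 and 20.1 to 3.44, 4.00 and 4.48 CPM (-2.27 ± 0.30, adjusted p = 1.97e-04) and CXCL8 from 5.45 ± 3.27 to 1.36 ± 0.578 CPM. The 2 higher members were the inhibitor NFKBIE and NFKBIZ, a nuclear member of its family (2.15 and 1.67, adjusted p = 8.86e-06 and 5.46e-05). The inhibitor NFKBIA was 134 ± 13.6 and 171 ± 21.5 CPM (adjusted p = 0.0776, 0.00254 with the block) and TNFAIP3 13.9 ± 3.17 and 18.3 ± 2.86 CPM (adjusted p = 0.148, 0.0423 with the block). CCL2, IL6, IL1A, IL1B and TNF were under the filter. Interferon-stimulated genes had 5 of 23 higher and 3 lower (8 and 4 with the block). The factor IRF7 rose from 11.6, 9.80 and 9.42 to 64.3, 71.7 and 55.4 CPM (2.63 ± 0.21, adjusted p = 7.16e-06) and IFI6 from 4.34 ± 0.607 to 13.1 ± 4.88 CPM, while IFIT3 fell from 8.93 ± 0.986 to 1.88 ± 0.394 CPM and ISG15 did not pass (26.6 ± 6.64 and 40.9 ± 15.6 CPM, adjusted p = 0.110, 8.06e-04 with the block). In MHC class I presentation 5 of 14 genes were higher and 0 lower. HLA-E, a ligand of natural killer cell receptors, rose from 51.8, 55.0 and 65.1 to 171, 164 and 172 CPM (1.56 ± 0.13, adjusted p = 9.07e-06) and HLA-C from 102 ± 15.8 to 204 ± 39.2 CPM. B2M, the shared light chain, rose from 305 ± 41.9 to 499 ± 123 CPM, a call that was lost with scaling by total counts, without DMSO replicate 3 or without i-BET858 replicate 1 (adjusted p = 0.0619, 0.0639 and 0.0664). Reads of HLA genes can be split between alleles and relatives, which makes their levels uncertain.

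Inhibitors of cyclin-dependent kinases were higher in 5 of 7 cases (71.4%) and lower in 0, with a median of 1.11. CDKN1A, the p21 gene, rose by 4.27 on the log2 scale (7.95 ± 2.66 to 153 ± 29.0 CPM), CDKN2B by 1.99 (57.1 ± 3.58 to 227 ± 8.40 CPM), and CDKN1C from 14.8 ± 1.56 to 37.8 ± 6.66 CPM. CDKN1B, the p27 gene, read 102 ± 17.1 and 85.2 ± 9.65 CPM and did not pass (adjusted p = 0.209). Of 21 genes for cyclins, kinases, RB and E2F of the G1 phase 8 were lower (38.1%) and 3 higher (8 and 5 with the block). CCNE1, a cyclin that is amplified in OVCAR-3, rose from 154, 166 and 167 to 353, 452 and 332 CPM (1.22 ± 0.15, adjusted p = 1.21e-04) and CCNE2 from 7.90 ± 0.850 to 25.0 ± 4.48 CPM. CCND1 fell from 388 ± 49.0 to 271 ± 32.4 CPM (-0.52 ± 0.15, adjusted p = 0.0212, but 0.0755 without DMSO replicate 3 and 0.0823 without i-BET858 replicate 1), E2F5 from 20.5 ± 4.57 to 7.84 ± 2.25 CPM and E2F8 from 31.2 ± 1.28 to 12.4 ± 2.73 CPM. RB1 did not pass (40.9 ± 2.71 and 39.0 ± 10.5 CPM, adjusted p = 0.821).

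Of 40 DNA replication genes 6 were higher and 9 lower, with a median of -0.05, against 10 and 15 with the block and 3 and 14 with total counts. The licensing factor CDC6 rose from 74.9 ± 9.26 to 115 ± 7.48 CPM and GINS4 from 26.4 ± 1.04 to 51.8 ± 4.76 CPM, while the clamp loader RFC1 fell from 94.4 ± 1.59 to 48.3 ± 2.92 CPM and ORC2 from 32.1 ± 5.45 to 14.3 ± 1.28 CPM. Of 38 genes of G2/M and mitosis 3 were higher (7.89%) and 6 lower (15.8%), against 8 and 11 with the block and 1 and 12 with total counts. PTTG1, the securin gene, was the higher member with the largest change (0.75, adjusted p = 0.00538). CCNB1 was 223 ± 48.6 and 226 ± 49.4 CPM (adjusted p = 0.954), while the checkpoint kinase BUB1B fell from 97.3 ± 12.3 to 52.6 ± 1.76 CPM, the kinetochore gene NDC80 from 61.3 ± 11.02 to 31.1 ± 7.81 CPM and TTK from 48.6 ± 5.62 to 28.5 ± 1.26 CPM. In homologous recombination and the Fanconi pathway, which repair double-strand breaks and crosslinks, 12 of 34 genes were lower (35.3%) and 0 higher (14 and 1 with the block), with a median of -0.33. TOPBP1, an activator of the ATR kinase, fell from 152, 181 and 182 to 72.6, 67.0 and 84.6 CPM (-1.20 ± 0.12, adjusted p = 3.68e-05), FANCF from 22.1 ± 3.65 to 9.22 ± 1.39 CPM and RAD51D from 4.42 ± 0.670 to 1.33 ± 0.452 CPM. BRCA1 did not pass (23.5 ± 6.05 and 18.5 ± 2.39 CPM, adjusted p = 0.236).

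In the BCL2 family, which governs apoptosis at the mitochondrion, 5 of 15 genes were higher and 4 lower (7 and 6 with the block, 5 and 6 with total counts). The pro-apoptotic BH3-only genes BCL2L11, which encodes BIM, (39.7, 36.4 and 39.6 to 131, 120 and 122 CPM, 1.69 ± 0.12), PMAIP1, which encodes NOXA, (12.3 ± 1.17 to 44.4 ± 10.7 CPM) and BIK (1.76 ± 0.605 to 7.13 ± 1.01 CPM) rose, as did HRK (0.86, adjusted p = 0.00845). BMF, also a pro-apoptotic BH3-only gene, fell from 40.7 ± 4.88 to 22.1 ± 2.22 CPM (-0.88 ± 0.16, adjusted p = 0.00128), and the pro-apoptotic BOK from 16.3 ± 0.947 to 10.2 ± 0.331 CPM (adjusted p = 0.0122). Of the anti-apoptotic members, MCL1 rose from 483 ± 28.4 to 862 ± 122 CPM and BCL2L1, which encodes BCL-XL, fell from 182, 167 and 175 to 76.4, 64.8 and 76.9 CPM (-1.26 ± 0.12, adjusted p = 1.63e-05). BCL2L2, which encodes the anti-apoptotic BCL-W, was lower too (-0.94, adjusted p = 6.66e-04), and its exons overlap a read-through transcript. BCL2 was at 1.84 and 1.51 CPM and did not pass.

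Of the genes of the unfolded protein response and of ATF4, 12 of 22 were higher (54.5%) and 3 lower, with a median of 0.68. HSPA5, the chaperone BiP, rose from 1294 ± 213 to 2183 ± 178 CPM (0.75 ± 0.13, adjusted p = 0.00102), the asparagine synthetase gene ASNS from 0.436 ± 0.0959 to 2.96 ± 0.322 CPM and the mTORC1 inhibitor DDIT4 from 6.56 ± 1.74 to 21.4 ± 4.47 CPM. The 3 lower members were TRIB3, a target of ATF4 (-1.41, adjusted p = 5.03e-04), VLDLR (-1.35, adjusted p = 4.25e-04) and XBP1, a transcription factor of the response (-0.62, adjusted p = 0.00170). ATF4 rose from 260, 284 and 278 to 568, 468 and 352 CPM, a call that was lost without i-BET858 replicate 1 (adjusted p = 0.0502). DDIT3, which encodes CHOP, read 20.04, 11.4 and 3.87 CPM with i-BET858 against 6.44, 7.78 and 5.80 CPM and did not pass (adjusted p = 0.215, but 0.00321 in replicates 1 and 2 alone). Its treated replicate 3 lay under all DMSO libraries. Heat shock genes were higher in 7 of 15 cases and lower in 0. BAG3, a co-chaperone of HSP70, rose from 88.3, 104 and 86.0 to 352, 357 and 391 CPM (1.98 ± 0.12, adjusted p = 1.06e-06), DNAJB1 from 199 ± 29.8 to 390 ± 59.6 CPM and the near-identical pair HSPA1A (17.4 ± 7.31 to 36.9 ± 11.9 CPM) and HSPA1B (9.88 ± 5.54 to 22.9 ± 6.92 CPM) with them, though reads of this pair can be shared and each call was lost without DMSO replicate 1, DMSO replicate 3 or i-BET858 replicate 2 (adjusted p = 0.0615 to 0.0893).

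The targets of NRF2, a transcription factor of the response to oxidants, had 12 of 23 higher (52.2%) and 3 lower. HMOX1, heme oxygenase 1, rose from 1.78, 1.79 and 1.63 to 10.4, 12.8 and 14.5 CPM (2.85 ± 0.23, adjusted p = 7.16e-06) and NQO1 from 125 ± 4.67 to 191 ± 6.97 CPM. The 3 lower members were GCLM, NFE2L2, which encodes NRF2, (99.8 ± 9.27 to 58.1 ± 10.8 CPM) and KEAP1, its inhibitor (115 ± 4.13 to 48.1 ± 8.75 CPM). Autophagy and lysosome genes were higher in 16 of 41 cases (39.0%) and lower in 2, and with scaling by total counts in 8 and 3. MAP1LC3B, which encodes the autophagosome protein LC3B, rose from 41.9, 40.4 and 38.3 to 149, 141 and 108 CPM (1.72 ± 0.17, adjusted p = 2.89e-05) and the receptor SQSTM1 from 213 ± 23.6 to 453 ± 13.9 CPM. The lysosomal sialidase NEU1 rose from 45.98 ± 6.72 to 109 ± 24.9 CPM. The lower members were ATG14 and ATG2B, factors of autophagosome formation (-0.74 and -0.70, adjusted p = 0.00208 and 0.00550). TFEB, the master factor of lysosome genes, read 2.74 ± 0.214 and 1.14 ± 0.365 CPM (-1.26 ± 0.52, adjusted p = 0.0868, 0.0370 with the block).

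The parts of the ribosome and the factors that build it differed in their shares, and this difference was not tested. For comparison, 51.9% of all protein-coding genes at 500 CPM or more were higher, and 27.4% of those at 10 to 50 CPM were lower. Of 81 cytosolic ribosomal protein genes 45 were higher (55.6%) and 1 lower, with a median of 0.42 and 1 change of at least 2-fold. The number higher was 20 with scaling by total counts, 67 in replicates 1 and 2 and 70 with the replicate block. Their summed level was 57203 to 67263 CPM with DMSO and 79221 to 90387 CPM with i-BET858. RPL10 rose from 415 ± 13.2 to 636 ± 13.9 CPM, and the only fall was that of RPL7L1, a factor of ribosome assembly (219 ± 4.70 to 132 ± 9.25 CPM, -0.73 ± 0.10). The muscle paralog RPL3L rose at a low level (0.404 ± 0.251 to 5.11 ± 3.39 CPM). Of 35 genes for ribosome biogenesis 19 were lower (54.3%) and 4 higher, with a median of -0.50. BRIX1, an assembly factor of the large subunit, fell from 74.0, 74.5 and 54.8 to 22.8, 16.8 and 13.3 CPM (-1.94 ± 0.23, adjusted p = 7.99e-05), RRS1 from 67.4 ± 5.97 to 20.2 ± 1.09 CPM and PPAN from 5.25 ± 0.898 to 1.09 ± 0.772 CPM. The 4 higher genes were the abundant nucleolar genes NPM1 (955 ± 78.5 to 1469 ± 122 CPM), NCL, FBL and NOP56. The call of NCL was lost with scaling by total counts and with 18 libraries in the fit (adjusted p = 0.0735 and 0.0594), and that of FBL (adjusted p = 0.0497) in 10 of the 15 alternatives. PPAN shares exons with a read-through transcript.

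Of 78 nuclear subunits of oxidative phosphorylation 25 were higher (32.1%) and 3 lower, none by 2-fold (43 and 5 with the block, 4 and 5 with total counts). Of 13 mRNAs encoded by the mitochondrial genome 2 passed as higher (15.4%), against 12 with the replicate block and 9 in replicates 1 and 2. MT-ND2 read 463, 692 and 590 CPM with DMSO and 868, 848 and 875 CPM with i-BET858 (0.57 ± 0.14, adjusted p = 0.00983), a call that was lost with scaling by total counts (adjusted p = 0.0644), as 0 of the 13 passed there. MT-CO1 ranged from 795 to 1874 CPM among the DMSO libraries alone. In cholesterol and fatty acid synthesis 6 of 32 genes were higher and 0 lower, against 10 and 2 with the block and 4 and 1 with total counts. TM7SF2, a sterol reductase, rose from 213 ± 24.9 to 429 ± 45.3 CPM.

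Of 41 tested genes for synaptic vesicles and the neuronal cytoskeleton 17 were higher (41.5%), 13 of them by at least 2-fold, and 1 lower, with a median of 0.66. NEFH, a neurofilament, rose from 1.66, 1.72 and 2.03 to 40.5, 48.1 and 28.1 CPM (4.43 ± 0.28, adjusted p = 1.68e-06). SERPINI1, which encodes neuroserpin, rose from 1.57, 2.02 and 1.35 to 30.8, 41.9 and 12.0 CPM, and SH3GL2, an endophilin of synaptic vesicles, from 0.177 ± 0.1003 to 4.32 ± 2.44 CPM. Replicate 3 was the lowest treated library in all 3 genes and still lay above every DMSO library. The lower member was RAB3A, a GTPase of synaptic vesicles (-1.54, adjusted p = 0.00592). Of 23 ABC transporters 9 were higher (39.1%) and 0 lower (13 and 1 with the block). ABCB1, the drug efflux pump P-glycoprotein, rose from 0.0605, 0.152 and 0 CPM to 2.08, 4.04 and 1.32 CPM (adjusted p = 0.00173), ABCG1, a cholesterol exporter, from 1.94 ± 0.385 to 7.98 ± 1.82 CPM and ABCC2 from 0.221 ± 0.0480 to 1.03 ± 0.185 CPM (adjusted p = 0.0508 without DMSO replicate 2). ABCC1 did not pass (60.5 ± 15.3 and 49.3 ± 19.9 CPM, adjusted p = 0.504, 0.0182 with the block), and ABCG2 was under the filter.

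Of 26 genes of the serous lineage 5 were higher (19.2%) and 1 lower, none by 2-fold, against 10 and 3 with the block and 2 and 1 with total counts. PAX8, the lineage factor, was at 454 ± 66.6 and 434 ± 47.9 CPM (adjusted p = 0.758) and WT1 at 120 ± 3.22 and 119 ± 16.4 CPM (adjusted p = 0.928), and the largest change was the fall of CDH6 given above. Of 27 keratin, claudin and desmosome genes 4 were higher and 4 lower (10 and 6 with the block, 2 and 6 with total counts). CDH1, the epithelial cadherin, rose from 309 ± 38.9 to 505 ± 57.5 CPM and KRT80 fell from 238 ± 34.9 to 125 ± 19.2 CPM. Among regulators and markers of mesenchymal transition 2 of 13 tested were higher (3 with the block, 1 with total counts). SNAI1, a repressor of epithelial genes, rose from 4.27, 3.41 and 4.85 to 22.9, 16.6 and 25.0 CPM (2.37 ± 0.22, adjusted p = 1.63e-05), while VIM stayed at 0.920 ± 0.467 and 1.21 ± 0.242 CPM (adjusted p = 0.613) and ZEB1 was under the filter.

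Among the 92 name stems with at least 15 tested protein-coding members, RPL (30 of 49), ABHD (8 of 18) and RPS (15 of 40) had the largest shares higher. The stem ENSG among the 92 is not a family, as it groups 25 genes without a symbol by the prefix of their ID. ABHD genes encode hydrolases of lipids, and ABHD3 rose from 5.22 ± 1.96 to 29.1 ± 13.4 CPM and ABHD6 by 1.94 on the log2 scale. The largest shares lower were in DHX (10 of 16), TRMT (10 of 16) and ZBTB (20 of 39), with 0 higher in each. DHX genes encode RNA helicases, and the log2 fold changes of DHX35 and DHX32 were -2.03 and -1.33. TRMT genes encode tRNA methyltransferases, where TRMT5 stood at -1.74 and TRMT61B at -1.31, and ZBTB genes are zinc finger factors, where ZBTB26 stood at -2.69 and ZBTB7B at -1.71.

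Higher and lower genes were also counted by gene structure, which the comparison did not use. Among protein-coding genes with a genomic span under 2 kb 30.3% of 231 were higher and 7.36% lower. The share higher declined with span to 12.3% of the 1185 genes of 200 kb or more, and the share lower was largest at 50 to 100 kb (23.5% of 2472). With the histone genes left out, 24.1% of the 199 genes under 2 kb were higher and 8.54% lower. Among genes at 10 to 100 CPM in the mean of the 6 libraries the share higher went from 37.3% (67 genes under 2 kb) to 14.4% (583 genes of 200 kb or more). By exon number of the canonical transcript, 32.7% of 333 genes with 1 exon were higher and 18.9% lower, against 10.9 and 18.1% of 1937 genes with 21 or more. Without the histone genes 25.6% of 285 genes with 1 exon were higher and 22.1% lower, and with total counts as well 20.7 and 25.6%, against 6.92 and 24.5% for 21 or more exons. By level, 51.9% of the 262 protein-coding genes at 500 CPM or more in the mean of the 6 libraries were higher and 4.96% lower, while at 10 to 50 CPM 14.9% of 4859 were higher and 27.4% lower. Scaling by total counts lowered the first of these shares to 31.3% and raised the share lower at this level to 9.16%. Processed pseudogenes had 9.44% of 752 higher and 2.26% lower, and long non-coding RNAs 5.87% of 1823 higher and 5.60% lower. With total counts these shares were 5.05 and 3.46% for the pseudogenes and 4.66 and 7.68% for the long non-coding RNAs. The power to pass grows with the count, so that shares between level classes are not like for like, and these shares carry no test.

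**Figure D5:**
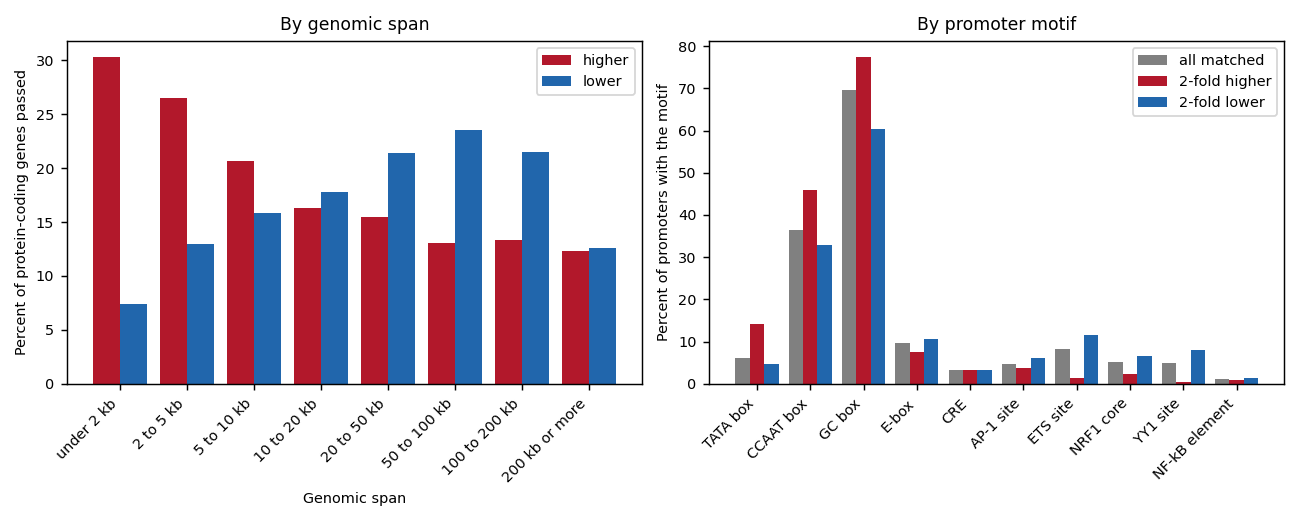
Left: percent of tested protein-coding genes that passed as higher (red) and lower (blue) with i-BET858 at 4 h in each class of genomic span, from 231 genes under 2 kb to 1185 genes of 200 kb or more. Right: percent of promoters that hold each motif among all 11239 matched genes (grey), 2-fold higher genes (red, 817) and 2-fold lower genes (blue, 906); the TATA box is more frequent among higher genes (14.2% against 6.01%) and the ETS site among lower genes (11.6% against 8.13%).

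Promoters were searched for short motifs on both strands in the window from 250 bases before to 50 bases after the start site (RefSeq, GRCh38.p14). A promoter was found by symbol for 11239 of 13914 tested protein-coding genes, 817 of them 2-fold higher and 906 2-fold lower. The TATA box TATAAA was held by 6.01% of these promoters, by 14.2% of the 2-fold higher genes (11.8% without histone genes) and by 4.64% of the 2-fold lower genes. The share over all 27305 promoters of the table was 12.0%. The CCAAT box stood in 36.4, 46 and 32.8% and the GC box GGGCGG in 69.6, 77.4 and 60.4% of all, higher and lower genes. The order was reversed for the ETS site CCGGAAGT (8.13, 1.47 and 11.6%), the NRF1 core GCGCATGC (5.09, 2.20 and 6.62%) and the YY1 site AAGATGGC (4.98, 0.490 and 8.06%). The E-box CACGTG was held by 9.72, 7.47 and 10.7%, the CRE TGACGTCA by 3.15, 3.30 and 3.31%, the AP-1 site TGANTCA by 4.58, 3.79 and 6.07% and the NF-kB element GGGACTTT by 1.01, 0.979 and 1.43%. Over all promoters of the table the shares were 35.7% for CCAAT, 44.6% for the GC box, 4.44% for ETS, 3.27% for NRF1, 3.03% for YY1, 7.43% for the E-box, 1.98% for the CRE, 7.76% for AP-1 and 1.16% for the NF-kB element. A match is a description of letters and not a bound site, and no match says only that these letters are not in the window.

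The TATA box was also counted by its position. With a match on the gene's own strand that began 35 to 20 bases before the start, a window chosen after the positions were seen, 102 of 221 genes were higher (46.2%) and 8 lower (3.62%), and their median log2 fold change was 0.76. Of the 11018 genes without it 15.3% were higher and 2207 genes were lower. Without the histone genes 81 of 195 were higher (41.5%) and 8 lower. Replicates 1 and 2 gave 120 of 220 higher and scaling by total counts 94 of 221. Of all 11239 matched promoters 15.9% belonged to higher and 19.7% to lower genes. Of genes with an ETS site 31.3% of 914 were lower and 8.86% higher, and of those with a YY1 site 33.0% of 560 lower and 6.25% higher.

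The 100 bases before the start are printed for 4 genes that rose and 3 that fell, to show the arrangements these counts refer to. Capitals mark the TATA box and the CCAAT box (ATTGG when it lies on the other strand) in the genes that rose, and the ETS site in those that fell. The start positions are those of RefSeq.
H2BC5 (chr6:26158021-26158120, plus strand): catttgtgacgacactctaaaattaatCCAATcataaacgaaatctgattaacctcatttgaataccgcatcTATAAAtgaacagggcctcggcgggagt
H2AX (chr11:119095466-119095565, minus strand): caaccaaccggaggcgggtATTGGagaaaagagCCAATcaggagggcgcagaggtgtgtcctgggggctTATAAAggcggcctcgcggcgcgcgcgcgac
PCDH8 (chr13:52848641-52848740, minus strand): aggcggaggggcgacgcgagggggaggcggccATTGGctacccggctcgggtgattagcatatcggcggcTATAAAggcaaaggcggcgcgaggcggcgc
HES6 (chr2:238240039-238240138, minus strand): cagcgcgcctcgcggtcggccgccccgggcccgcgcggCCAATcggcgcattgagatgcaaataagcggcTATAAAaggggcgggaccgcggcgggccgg
MED7 (chr5:157142866-157142965, minus strand): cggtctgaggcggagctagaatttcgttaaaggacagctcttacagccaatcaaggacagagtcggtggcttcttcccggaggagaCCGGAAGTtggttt
KAT5 (chr11:65712152-65712251, plus strand): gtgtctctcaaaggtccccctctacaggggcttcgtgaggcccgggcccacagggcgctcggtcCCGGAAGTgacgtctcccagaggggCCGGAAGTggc
GMEB1 (chr1:28668684-28668783, plus strand): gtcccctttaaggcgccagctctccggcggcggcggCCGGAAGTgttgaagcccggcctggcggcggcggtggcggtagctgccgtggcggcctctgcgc
The TATA box begins 28 bases before the start in H2BC5, 31 in H2AX and 30 in PCDH8 and HES6. KAT5 holds an ETS site at 36 and another at 11 bases, MED7 one at 14 and GMEB1 one at 64 bases before the start. MED7 also has the letters of a CCAAT box.

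The 16 genes of largest fold change were set beside i-BET151 at the same dose and time. The effects of the 2 drugs share the DMSO libraries, so only the direct contrast of the treated libraries is a test, and the genes were picked for the size of the i-BET858 effect. In the direct contrast 167 of 17192 genes (0.971%) passed, and 5 of the 16 did (10 with the replicate block, where 1655 genes passed). DLL4 had a log2 fold change of 6.21 with i-BET858 and 4.46 with i-BET151 (difference 1.75, adjusted p = 0.0237) and TAMALIN 5.49 and 4.15 (difference 1.34, adjusted p = 0.0296). The falls of ZNF507 (-3.13 and -1.93, adjusted p = 0.0187), ZNF8 (-2.96 and -1.15, adjusted p = 0.0330) and GMEB1 (-2.95 and -1.49, adjusted p = 0.0254) were larger with i-BET858. MAFA (7.39 and 6.28, adjusted p = 0.177), NOG (-3.24 and -2.67, adjusted p = 0.234) and LIF (-4.31 and -4.29, adjusted p = 0.996) did not pass, though MAFA and NOG did with the block, and none of the 12 genes of largest gain or loss in CPM passed (lowest adjusted p = 0.137), against 7 with the block.

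The same genes were followed to 24 h, where 4941 of 18154 genes (27.2%) had an i-BET858 effect that differed from that at 4 h (interaction in a fit of all 18 libraries). Of the 16 genes 8 did, and 11 with the replicate block, where 6962 genes passed the interaction. Of the 12 genes of largest gain or loss in CPM 6 did, and 9 with the block. All these genes were picked for a large effect at 4 h, and the same 4 h libraries enter the interaction. The choice itself therefore favours smaller effects at 24 h. The falls of KLHL14 (-3.12 at 4 h and -0.51 at 24 h, adjusted p = 3.68e-07) and ZNF507 (-3.13 and -0.99, adjusted p = 3.82e-06) were smaller at 24 h, and so were those of ZNF8, GMEB1 and ZNF484. The rises of DLL4 (6.21 and 4.47, adjusted p = 0.0159), ATP1B2 (5.52 and 3.52, adjusted p = 0.00165) and TAMALIN (5.49 and 3.31, adjusted p = 0.0367) were smaller as well. NOG (-3.24 and -3.33, adjusted p = 0.846), LIF (-4.31 and -4.11, adjusted p = 0.886), TMEM100 (-3.02 and -2.72, adjusted p = 0.257) and GFPT2 (5.97 and 5.69, adjusted p = 0.870) did not pass the interaction. Of the genes with the largest changes in CPM, CA2 was down at both times (-1.84 and -2.12, adjusted p = 0.493), whereas ARHGAP29 (-0.92 and 0.43, adjusted p = 1.19e-05) and EZR (-0.45 and 0.36, adjusted p = 8.46e-05) were lower at 4 h and passed as higher at 24 h (adjusted p = 0.00518 and 0.00234 against DMSO at 24 h).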

How the data were processed

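RNA-seq was measured in 18 libraries of OVCAR-3 cells in 6 conditions with 3 replicates each, and 6 libraries are described here. The authors deposited raw counts per gene, and the submitters' processing notes name STAR, DESeq2 and the build GRCh38; the annotation and the strand setting are not given in the sources used here. Gene names came from GENCODE 44, which held 58472 of 58825 gene IDs (99.4%). Total counts were 28797010 to 39432226 per library, and intervals and limits cover counting error only.

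Counts were tested with the quasi-likelihood test of edgeR 4.0.16 (R 4.3.3, limma 3.58.1) after filterByExpr and TMM scaling, with the 9 libraries of 4 h in 1 fit, two-sided, and with Benjamini-Hochberg adjustment over all genes tested. The SE of a log2 fold change was its size divided by the square root of the F statistic. CPM were counts per 1000000 of the TMM-scaled library size. The fitting was tested on simulated data. The comparison with i-BET151 was a contrast in the same fit, and the change from 4 to 24 h an interaction in a fit of 18 libraries. Alternatives were DESeq2 1.42.0, RLE and total-count scaling, no filter, at least 10 counts in each library, 6 or 18 libraries in the fit, replicates 1 and 2 alone, a replicate block, fits without 1 library at a time, and 1.5-fold in place of 2-fold.

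Replicates of a group differed by more than counting error (chi-square per degree of freedom 21.1 to 65.1 over 6 pairs), and p-values measure the spread between them. Libraries with the same replicate number tended to be more alike, most clearly for replicate 3. Deviations from the group means correlated at 0.141 to 0.365 for the 9 pairs of libraries with the same number (median 0.302) and at -0.341 to 0.233 for the other 18 pairs (median -0.224). Deviations within a group cancel out, so positive values in some pairs go with negative ones in others. Replicates 1 and 2 were mixed. DMSO replicate 2 correlated more with i-BET858 replicate 1 (0.23) than DMSO replicate 1 did (0.146). With i-BET858 replicate 2, DMSO replicate 2 was ahead (0.301 against -0.0259). A pairing by number is thus not established, and no shared day is stated.

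The genes named were the 8 largest rises and falls, the 6 largest gains and losses in CPM, protein-coding genes at 0 in 1 group and members of the leading families. From each list came the first 3 members and up to 3 passed members with the largest fold change in either direction. Some of the genes and 1 list are not reported here. KDR, ABCG1, GCLM, NOP56, BMF, BOK and the list members given by fold change and adjusted p alone were named after their values were seen. The gene lists, rules and named alternatives were chosen with earlier results of these data known. Promoters were matched by symbol to RefSeq (GRCh38.p14).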

Additional observations from a re-analysis of the deposited data

Results flagged for a closer look

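The i-BET858 effect differed between 4 and 24 h in 14 of the 28 genes with the largest change in fold or in CPM at 4 h (interaction in edgeR, 4941 of 18154 genes passed, 27.2%). These genes were chosen for a large effect at 4 h, and the same 4 h libraries enter the interaction. The choice itself therefore favours smaller effects at 24 h. With the replicate block 6962 genes passed, among them 11 of the 16 genes picked by fold and 9 of the 12 picked by CPM. As the effect at 24 h minus that at 4 h on the log2 scale, the rises were smaller at 24 h in DLL4 (-1.73, adjusted p = 0.0159), ATP1B2 (-2.0, adjusted p = 0.00165) and TAMALIN (-2.17, adjusted p = 0.0367). The falls were smaller at 24 h in ZNF507 (2.14, adjusted p = 3.82e-06), KLHL14 (2.61, adjusted p = 3.68e-07), ZNF8 (2.29, adjusted p = 0.00201), GMEB1 (2.20, adjusted p = 2.19e-05) and ZNF484 (2.0, adjusted p = 0.00117).

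Among the genes with the largest gains and losses in CPM, the difference was -0.64 for RPS3 (adjusted p = 0.00668) and -0.33 for PKM (adjusted p = 0.0287). It was 0.64 for CDH6 (adjusted p = 0.00787), 1.36 for ARHGAP29 (adjusted p = 1.19e-05), 0.81 for EZR (adjusted p = 8.46e-05) and 0.90 for SAMD4B (adjusted p = 0.0178).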

How the results depend on the processing

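The 4 counts of the comparison with DMSO at 4 h stayed within 1.5 times under the other alternatives, with these exceptions. With the replicate block 3841 genes were higher in place of 2497. At least a 1.5-fold change was reached by 1878 higher and 2338 lower genes. Leaving out 1 library gave 1845 to 2519 genes higher and 2221 to 2817 lower. The direct contrast with i-BET151 moved most, from 167 genes to 1655 with the replicate block, 667 with DESeq2 and 392 in replicates 1 and 2, and the cause was not tested. Of the 227 genes named, 200 passed, and 179 of these passed in the same direction in each of the 15 alternatives that tested them. The 21 others lost the call in at least 1 of them. None of these 200 genes changed direction, and other genes were not checked for it. Counts of genes under about 1 CPM rest on few counts, and a change there was often not detectable at this depth.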
